A study of Mus musculus with 12 samples.

Results

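The hearts of mice labelled Csrp3 KO were compared between postnatal day 21 (P21) and postnatal day 1 (P1), the stretch of life in which heart muscle stops dividing and takes on its adult form. Of the 12 RNA-seq libraries of the series, 6 were used for this comparison: 3 labelled Csrp3 KO at P21 and 3 labelled Csrp3 KO at P1. The other 6 libraries, 3 from wild-type (WT) hearts at P21 and 3 from WT hearts at P1, gave the same age change in the other genotype. A gene entered when it had at least 1 FPKM (fragments scaled to gene length and sequencing depth) in at least 3 of the 6 libraries labelled KO, which kept 12344 of the 56748 genes of the deposited table. The labels name the tissue as heart without a strain, a sex or the knockout allele, and do not state whether samples came from different animals, so p-values reflect sample-to-sample spread that could be technical. Libraries of a group are numbered 1 to 3, and values are given in that order.

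Csrp3 encodes muscle LIM protein, a small protein of the sarcomere's Z disc that is known for its part in stretch sensing and in dilated and hypertrophic cardiomyopathy. In the weeks after birth, mouse heart muscle cells leave the cell cycle, replace fetal sarcomere proteins with adult isoforms, fill with mitochondria and take most of their energy from fatty acids. The title of the series links Csrp3 to mitotic entry through the ubiquitin ligase Rnf5 and the kinase p38.

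The 6 libraries held 10768517 to 14184772 reads in genes, 9.85% to 19.6% of them from mitochondrial genes. Csrp3 RNA was present in each library labelled KO. The table places Csrp3 on the minus strand of chromosome 7, between positions 48480146 and 48497781. Csrp3 had 671, 1112 and 926 FPKM in the P21 libraries, against 168, 94.3 and 147 FPKM in the P1 libraries labelled KO. WT hearts had 1068, 1397 and 572 FPKM at P21 and 183, 179 and 238 FPKM at P1, so the labelled KO values lay within the WT range at P21 and below it at P1. The 2 ages did not overlap for Csrp3 in the libraries labelled KO (log2 change 2.73, SE 0.31, adjusted p = 0.000813). No source used here says which part of the gene the allele removes, and the libraries are called labelled KO throughout. Xist, the RNA made from the inactive X chromosome of females, stood at 19.6, 0.188 and 19.4 FPKM at P21 and at 32.9, 27.5 and 0.262 FPKM at P1, so both ages held libraries with high and with near-zero Xist. The Y-linked gene Eif2s3y, chosen after its values were seen, stood at 0.0818, 21.2 and 0.0194 FPKM at P21 and at 0.134, 0 and 2.31 FPKM at P1. The low-Xist library at P1 thus had far less of it than the low-Xist library at P21. The authors' scaling factor followed age. It was 0.857, 0.771 and 0.944 in the P21 libraries labelled KO, against 1.15, 1.14 and 1.16 in the P1 libraries. WT libraries had 0.761, 0.605 and 0.886 at P21, against 1.17, 1.15 and 1.17 at P1. The lowest factors were those of WT P21 libraries 1 and 2 and of P21 library 2 labelled KO. The median gene changed by -0.01 (log2) in the deposited values but by -0.65 when each library was rescaled to the same sum per length (TPM). All changes below are relative to the median gene of the deposited values.

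In libraries labelled KO, 3838 of 12344 genes (31.1%) differed between P21 and P1 at an adjusted p under 0.05 by limma. P21 was higher for 1937 genes (15.7%) and lower for 1901 genes (15.4%), and 271 and 228 of these changed by more than 2 log2 units. Under TPM scaling the split became 759 higher and 5519 lower, and without the mitochondrial and the 20 most abundant genes it became 982 higher and 4091 lower. Without library 2 at P1 the count fell to 2357 genes. The groups did not overlap for 5903 genes (47.8%). These are bulk samples of heart, so fewer cells of a type and less RNA per cell cannot be told apart in any result.

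The largest increases were in muscle genes. Acta1, the skeletal muscle actin that is also found in heart, had 2009, 1117 and 2495 FPKM in the P21 libraries, against 15.96, 22.9 and 38.3 FPKM in the P1 libraries, which made it 72.9-fold higher by mean FPKM (log2 change 6.17, SE 0.40, adjusted p = 8.56e-05). Rpl3l, the striated muscle form of ribosomal protein L3, had 252, 292 and 206 FPKM in the P21 libraries, against 2.72, 5.58 and 6.80 FPKM in the P1 libraries (log2 change 5.57, SE 0.31, adjusted p = 5.31e-05). Xirp2, an actin-binding protein of the intercalated disc, had 44.5, 69.5 and 75.2 FPKM in the P21 libraries, against 0.755, 1.004 and 1.15 FPKM in the P1 libraries (log2 change 5.41, SE 0.23, adjusted p = 1.42e-05). For all 3 genes each P21 library lay far above each P1 library. Ckmt2, the creatine kinase of muscle mitochondria, had 1923, 2258 and 1658 FPKM in the P21 libraries, against 56.01, 68.97 and 64.8 FPKM in the P1 libraries (log2 change 4.93, SE 0.24, adjusted p = 2.89e-05), with little spread at either age. Art1, a cell-surface ADP-ribosyltransferase of muscle, had 73.8, 63.2 and 72.03 FPKM in the P21 libraries, against 1.64, 2.40 and 1.81 FPKM in the P1 libraries. Trim72, also called MG53 and known for membrane repair in muscle, had 149, 112 and 144 FPKM in the P21 libraries, against 3.03, 7.38 and 8.54 FPKM in the P1 libraries, and its P1 library 1 was the lowest.

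Other genes among the 12 largest increases were more varied. They included Cbr2, a carbonyl reductase (log2 change 4.87), Tuba8, an alpha tubulin (4.76), Plet1os (4.48), Lynx1, a modulator of acetylcholine receptors (4.25), and Hba-a2, an alpha globin (4.20). Hba-a2 had 412, 180.5 and 52.2 FPKM in the P21 libraries, against 20.1, 4.09 and 6.17 FPKM in the P1 libraries, with a wide spread at both ages, and it shares nearly its whole sequence with Hba-a1, so the split of reads between the copies is uncertain. Plet1os is an antisense gene, and no source used here gives the strand setting of the counting, so its reads cannot be told apart from those of its partner.

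The largest decreases were in fetal and growth genes. Tnni1, the slow skeletal troponin I that fetal heart uses, had 0.213, 0.134 and 1.81 FPKM in the P21 libraries, against 461, 442 and 347 FPKM in the P1 libraries, which made it 579-fold lower at P21 (log2 change -8.67, SE 0.46, adjusted p = 5.31e-05). H19, a noncoding RNA made from the maternal copy of an imprinted locus, had 10.9, 9.999 and 16.3 FPKM in the P21 libraries, against 1104, 877 and 774 FPKM in the P1 libraries (log2 change -6.17, SE 0.25, adjusted p = 1.42e-05). For both genes each P21 library lay far below each P1 library. Bmp7, a bone morphogenetic protein, had 0.339, 0.479 and 0.220 FPKM in the P21 libraries, against 17.4, 16.04 and 16.99 FPKM in the P1 libraries (log2 change -4.36, SE 0.17, adjusted p = 1.37e-05), with little spread at either age. Cited1, a transcriptional coregulator, had 0.340, 0.618 and 0.276 FPKM in the P21 libraries, against 24.2, 26.4 and 21.7 FPKM in the P1 libraries. Other members of the 12 largest decreases were Bex4 (log2 change -4.80), the imprinted genes Dlk1 (-4.56), Mest (-4.29) and Plagl1 (-4.14), and the cell cycle genes Cks2 (-4.07), Rrm2 (-3.95) and Ccnb1 (-3.83). Genes at or near 0 in an age group, such as Dlk1 and Ccnb1 at P21 and Plet1os at P1, have log2 changes whose size depends on the pseudocount of 0.5 FPKM. All 22 of these genes stayed past the threshold in every alternative that gave them a value. They had been chosen as the largest changes already past it.

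**Figure D1:**
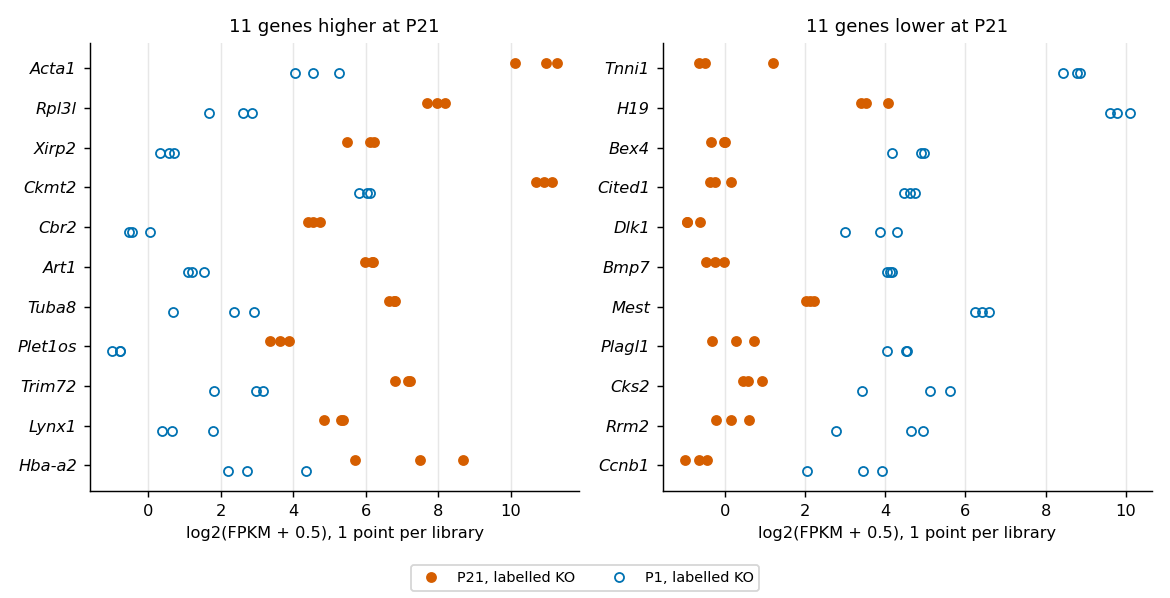
Each point is 1 library labelled Csrp3 KO, with log2(FPKM + 0.5) on the horizontal axis, filled for P21 and open for P1. The left panel holds 11 of the 12 genes with the largest increase and the right panel 11 of the 12 with the largest decrease; Acta1 reached 2495 FPKM at P21 and Tnni1 461 FPKM at P1.

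Gene lists drawn up by role were read as counts against the 15.7% of all genes higher and the 15.4% lower. Among the 23 lists other than cell type markers, hypertrophy and wall stress genes had the highest median, at 1.76 log2 units, and mitosis genes the lowest, at -2.74, beside -0.01 for all genes tested. A list's members are measured in the same libraries, so its count is a description of these libraries. Members named from a list mostly had its smallest adjusted p, so non-overlap of their ages follows largely from that choice.

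**Figure D2:**
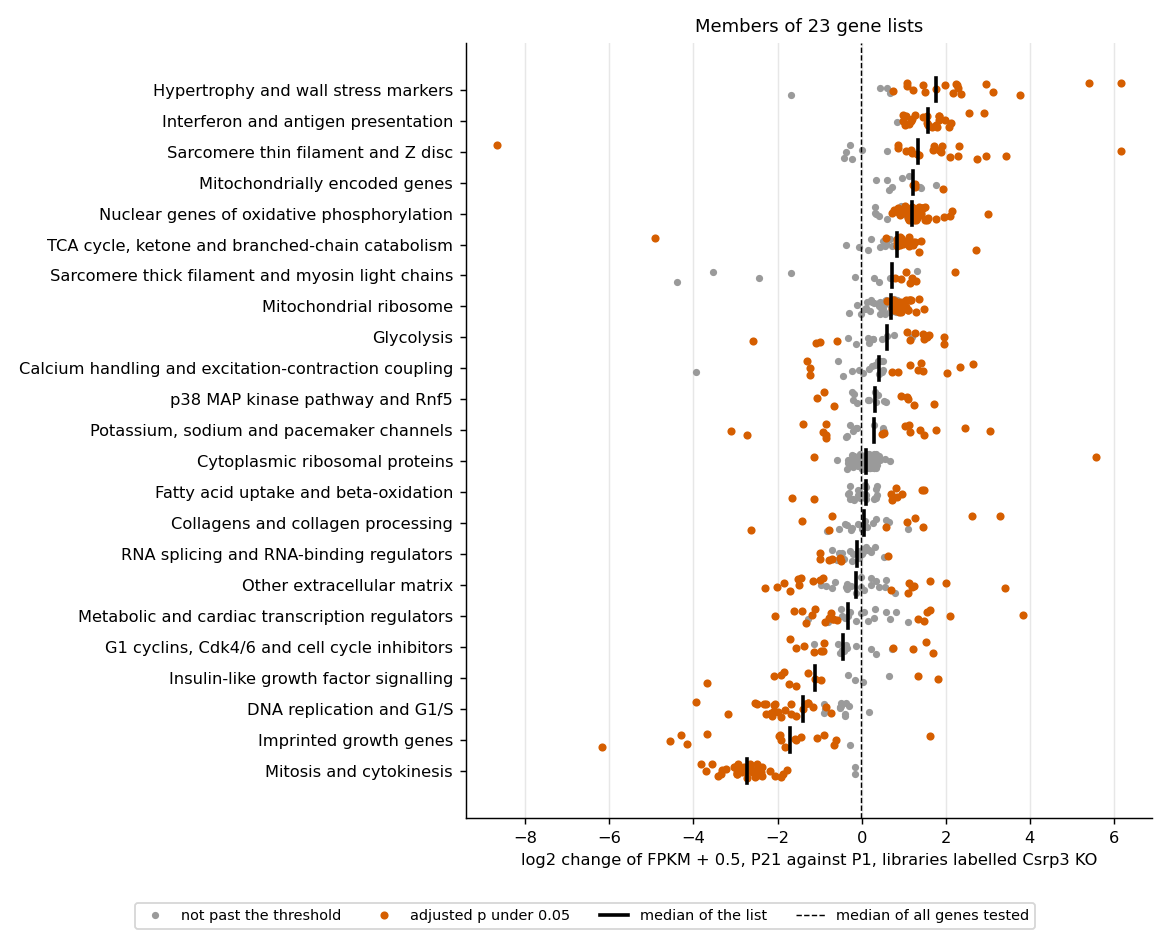
Each point is 1 gene of a list that passed the level filter, placed by its log2 change of FPKM + 0.5 between P21 and P1 in libraries labelled Csrp3 KO, and coloured where its adjusted p was under 0.05. The black bar is the list's median, which runs through 23 lists from 1.76 (hypertrophy and wall stress) to -2.74 (mitosis and cytokinesis), and the dashed line is the median of all genes tested at -0.01.

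Genes of the sarcomere's thin filament and Z disc were mostly higher at P21. Of its 26 genes, 1 of which passed the filter only through its P21 values, 19 were higher and 1 was lower. The median change was 1.33, which was 0.69 under TPM scaling, where 12 were higher and 5 lower. Tcap, the protein that caps titin at the Z disc, had 1742, 1616 and 2307 FPKM in the P21 libraries, against 187, 182 and 152 FPKM in the P1 libraries (log2 change 3.43, SE 0.26, adjusted p = 0.000145). Lmod2, which lengthens thin filaments, had 415, 366 and 348 FPKM in the P21 libraries, against 81.2, 82.05 and 63.6 FPKM in the P1 libraries (log2 change 2.31, SE 0.21, adjusted p = 0.000348). Myot, a Z disc protein that cross-links actin, had 5.39, 7.14 and 10.1 FPKM in the P21 libraries, against 0.253, 0.673 and 0.651 FPKM in the P1 libraries (log2 change 2.96, SE 0.27, adjusted p = 0.000362). In none of these 3 did a P1 library reach the lowest P21 library. Tnni3, the adult cardiac troponin I, had 3292, 4132 and 2619 FPKM in the P21 libraries, against 1136, 950.1 and 908 FPKM in the P1 libraries (log2 change 1.73, SE 0.29, adjusted p = 0.00401). Tnni1 was the 1 member past the threshold as lower, and 20 of the 26 members had a change above 0.

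The thick filament moved less. Of 17 genes, 16 passed the level filter, 7 were higher and none was lower, with a median of 0.73 that became 0.07 under TPM scaling. Ttn, the giant spring protein titin, had 38.8, 37.2 and 36.9 FPKM in the P21 libraries, against 15.8, 21.7 and 16.8 FPKM in the P1 libraries (log2 change 1.05, SE 0.17, adjusted p = 0.00332). Myom1, which cross-links thick filaments at the M band, had 136, 132 and 137 FPKM in the P21 libraries, against 60.3, 67.2 and 48.8 FPKM in the P1 libraries (log2 change 1.21, SE 0.19, adjusted p = 0.00329). Both calls were lost under TPM scaling, with adjusted p = 0.153 for Ttn and 0.0691 for Myom1. The myosin heavy chains were more variable, with Myh6, the fast adult form, at 3560.0, 1808 and 4144 FPKM at P21 and 913, 2234 and 841 FPKM at P1 (adjusted p = 0.0715), and Myh7, the slow fetal form, at 83.6, 30.8 and 88.9 FPKM at P21 and 335, 245 and 95.6 FPKM at P1 (adjusted p = 0.0506). Neither passed the threshold, and in both genes a library lay close to or inside the range of the other age. The count of higher thick filament genes fell to 3 without P1 library 1, without P1 library 3 or without P21 library 1, and the split was 5 higher and 3 lower without P21 library 3.

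Pairs of related genes, an adult or muscle form over a fetal or general form, were compared within each library, where a scaling factor nearly cancels. Of 23 pairs, 18 had P21 and P1 libraries that did not overlap, 16 with a higher ratio at P21 and 2 with a lower ratio. Among all single genes tested, 47.8% did not overlap. The pairs were chosen as pairs of heart maturation, so their count is a description. With 3 against 3 libraries the smallest two-sided p of the exact permutation test was 0.1, and adjusted over the 23 pairs it was 0.128, so no pair could pass 0.05. The log2 ratio of Tnni3 over Tnni1 was 12.2, 12.7 and 10.1 in the P21 libraries, against 1.30, 1.10 and 1.39 in the P1 libraries. Put as a share, Tnni3 made up at least 99.9% of the pair's total at P21 and 68.2% to 72.3% at P1. The Rpl3l over Rpl3 log2 ratio was 2.30, 1.78 and 1.98 in the P21 libraries, against -5.66, -4.19 and -4.17 in the P1 libraries. Rpl3l was 77.6% to 83.2% of the pair at P21 and 1.64% to 4.94% at P1, an exchange of the muscle for the general form of the same ribosomal protein. Myh6 was 97.7% to 98.3% of the myosin heavy chain pair at P21 and 73.1% to 90.1% at P1, although neither gene passed the test alone. Cox7a1, the muscle form of a cytochrome c oxidase subunit, was 67.4% to 70.5% of its pair at P21 and 28.6% to 35.7% at P1. These genes share stretches of sequence with their partners, so part of the reads may have been counted to the wrong member.

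Other exchanges ran the same way. The log2 ratio rose by 4.13 for the elongation factors Eef1a2 over Eef1a1, by 3.34 for the growth factors Igf1 over Igf2, by 2.96 for the glucose transporters Slc2a4 over Slc2a1 and by 2.81 for the pacemaker channels Hcn2 over Hcn4. Among oxidase subunits it rose by 2.79 for Cox6a2 over Cox6a1 and by 2.69 for Cox8b over Cox8a, and among glycolytic enzymes by 2.07 for Pgam2 over Pgam1 and by 1.60 for Eno3 over Eno1. The 2 pairs that went the other way were Actc1 over Acta1, which changed by -4.86, and Casq2 over Casq1, which changed by -2.46. In both, the skeletal muscle form gained on the cardiac form: Casq1, the skeletal calcium store protein, had 216, 161 and 378 FPKM in the P21 libraries, against 32.5, 45.6 and 35.3 FPKM in the P1 libraries, and Casq2, the cardiac one, had 355, 436 and 306 FPKM in the P21 libraries, against 324, 333 and 302 FPKM in the P1 libraries. Myl2 over Myl7 and Myl3 over Myl4 overlapped, and P21 library 3 held the atrial forms Myl7 and Myl4 at high level. The ratios of Ldhb over Ldha, Ckm over Ckb and Fabp3 over Fabp5 also overlapped between the ages.

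**Figure D3:**
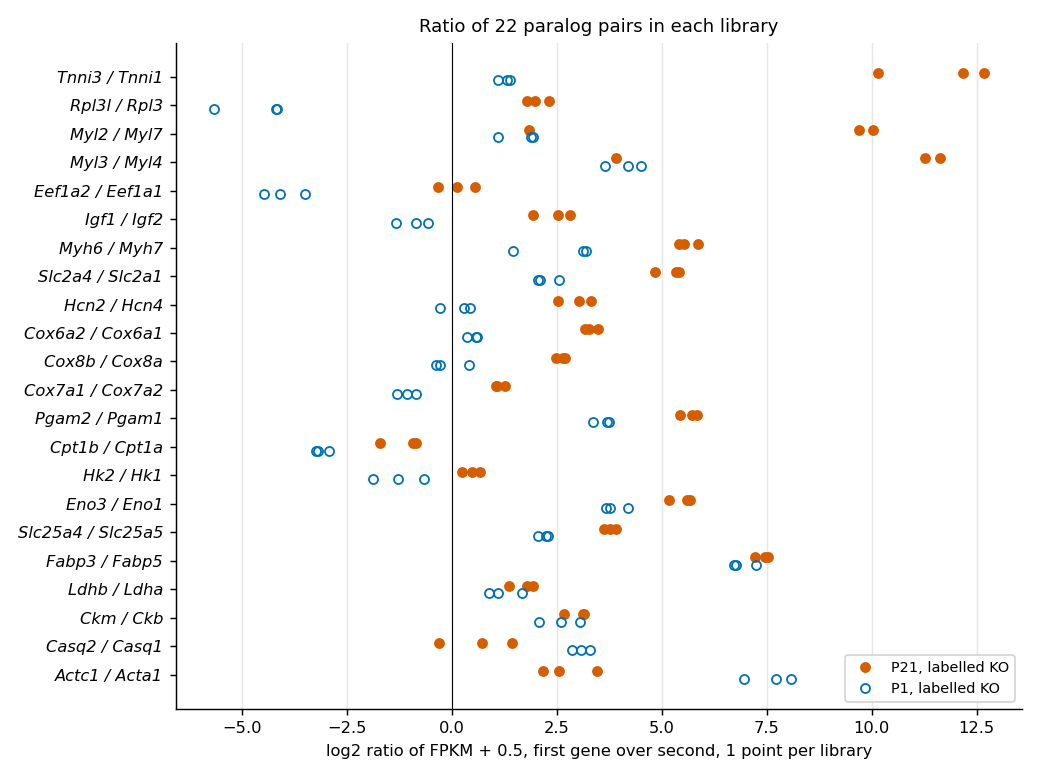
Each point is the log2 ratio of FPKM + 0.5 of 2 related genes in 1 library labelled Csrp3 KO, filled for P21 and open for P1, for 22 of the 23 pairs ordered by the change in the mean ratio. Tnni3 over Tnni1 lies at 10.1 to 12.7 at P21 and 1.10 to 1.39 at P1, and in Myl2 over Myl7 and Myl3 over Myl4 1 filled point sits among the open ones.

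Genes of oxidative phosphorylation were higher at P21. Of the 64 nuclear genes, 53 were higher and none lower, with a median of 1.19 that stayed at 0.53 under TPM scaling, where 28 were higher, and 23 were higher with all 12 libraries in the model. Cox7a1 had 1409, 2572 and 960.02 FPKM in the P21 libraries, against 176, 173 and 214 FPKM in the P1 libraries (log2 change 3.02, SE 0.37, adjusted p = 0.00113). Cox6a2, the muscle form of another subunit of the same enzyme, had 2661, 3788 and 1907 FPKM in the P21 libraries, against 771, 685 and 635 FPKM in the P1 libraries (log2 change 1.95, SE 0.32, adjusted p = 0.00359). Ndufs7, a core subunit of complex I, had 394, 527 and 333 FPKM in the P21 libraries, against 169, 152 and 145 FPKM in the P1 libraries (log2 change 1.40, SE 0.25, adjusted p = 0.00457). Uqcrc1, a core subunit of complex III, had 439.5, 445 and 373 FPKM in the P21 libraries, against 167, 200.5 and 166 FPKM in the P1 libraries (log2 change 1.24, SE 0.22, adjusted p = 0.00477). P21 library 2 was the highest for all 4 genes, and the list's median in that library was 1.15 log2 units above each gene's mean, against 0.45 and 0.15 in P21 libraries 1 and 3. Without P21 library 2 the count was 54 and the median 0.90. The count was 32, 19, 28 and 31 without P1 library 1, 2 or 3 or without P21 library 1.

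The 13 genes encoded in mitochondrial DNA had a similar median, 1.23, and 4 were higher. Mt-Cytb, cytochrome b, had 32156, 32597 and 23551 FPKM in the P21 libraries, against 12577, 10473 and 14443 FPKM in the P1 libraries (log2 change 1.23, SE 0.35, adjusted p = 0.0292), and mt-Co1, the catalytic subunit of cytochrome c oxidase, had 60715, 72676 and 43205 FPKM in the P21 libraries, against 27149, 21414 and 30834 FPKM in the P1 libraries (adjusted p = 0.0554). For both, P21 library 3 was the lowest of its age, yet no P1 library reached it. The count was 0 without P1 library 2 or without P21 library 1, 1 without P1 library 1 or 3, and 7 without P21 library 3. Of the 56 mitochondrial ribosome genes, which translate those transcripts, 23 were higher and none lower, with a median of 0.71 that fell to 0.06 under TPM scaling, where 4 were higher and 5 lower. Mrps25, a small subunit protein, had 11.2, 15.8 and 9.22 FPKM in the P21 libraries, against 4.11, 3.45 and 4.23 FPKM in the P1 libraries (log2 change 1.48, SE 0.21, adjusted p = 0.0021). The list's count was 13, 9 and 12 without P1 library 1, 2 or 3, 14 without P21 library 1 and 35 without P21 library 3.

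Genes that burn carbon fuels moved in different directions. In the tricarboxylic acid cycle, ketone and branched-chain amino acid list, 33 of 34 genes passed the filter, 20 were higher and 1 was lower, with a median of 0.85 that was 0.18 under TPM scaling, where 4 were higher and 4 lower. Oxct1, which lets tissues use ketone bodies, had 253, 294 and 204 FPKM in the P21 libraries, against 26.2, 36.1 and 55.1 FPKM in the P1 libraries (log2 change 2.71, SE 0.30, adjusted p = 0.000672). Pcca, a propionyl-CoA carboxylase subunit, had 13.8, 14.2 and 13.1 FPKM in the P21 libraries, against 5.48, 5.99 and 4.73 FPKM in the P1 libraries (log2 change 1.27, SE 0.15, adjusted p = 0.000963). Mccc2, of leucine breakdown, had 22.96, 27.3 and 21.2 FPKM in the P21 libraries, against 10.7, 7.34 and 8.11 FPKM in the P1 libraries (log2 change 1.41, SE 0.19, adjusted p = 0.00159). Groups did not overlap for any of these 3 genes. The list's count of higher genes was 12, 13 and 10 without P1 library 1, 2 or 3, and 11 without P21 library 1.

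Fatty acid genes did not rise as a list. Of 32 genes, 7 were higher and 2 lower, and the median of 0.10 became -0.57 under TPM scaling, where 2 were higher and 14 lower. Lpl, the lipase that frees fatty acids from lipoproteins, had 234, 216 and 218 FPKM in the P21 libraries, against 88.3, 70.4 and 81.7 FPKM in the P1 libraries (log2 change 1.47, SE 0.20, adjusted p = 0.00154). Cpt1a, the general form of the enzyme that gates fatty acid entry into mitochondria, had 6.91, 5.34 and 7.99 FPKM in the P21 libraries, against 15.4, 17.7 and 12.6 FPKM in the P1 libraries (log2 change -1.13, SE 0.20, adjusted p = 0.00475). Acot2, a mitochondrial acyl-CoA thioesterase, had 20.8, 13.4 and 12.3 FPKM in the P21 libraries, against 55.6, 58.3 and 36.1 FPKM in the P1 libraries (log2 change -1.66, SE 0.26, adjusted p = 0.00303). Lpl thus lay higher at P21 in every library, and Cpt1a and Acot2 lower in every library. Cpt1b, the muscle form of the gate, had 3.56, 2.57 and 2.10 FPKM in the P21 libraries, against 1.58, 1.43 and 0.930 FPKM in the P1 libraries, and its call (adjusted p = 0.0325) was lost in 8 alternatives, TPM scaling among them. Higher genes numbered 2 without P1 library 2, 2 without P1 library 3 and 3 without P21 library 1.

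Genes of glycolysis and glucose or lactate transport moved both ways. Of 25 genes, 23 passed the filter, 1 of them only through its P1 values. Of the 23, 9 were higher and 4 lower, with a median of 0.61 that turned to -0.06 under TPM scaling. Slc2a4, the insulin-regulated glucose transporter GLUT4, had 106, 125 and 100.04 FPKM in the P21 libraries, against 23.8, 29.9 and 30.7 FPKM in the P1 libraries (log2 change 1.96, SE 0.19, adjusted p = 0.000389). Slc2a1, the general transporter GLUT1, had 2.14, 2.47 and 3.03 FPKM in the P21 libraries, against 5.40, 6.55 and 4.85 FPKM in the P1 libraries (log2 change -1.002, SE 0.19, adjusted p = 0.00571). Pfkfb2, which makes the heart's activator of phosphofructokinase, had 11.4, 7.45 and 10.3 FPKM in the P21 libraries, against 2.43, 1.96 and 1.92 FPKM in the P1 libraries (log2 change 1.96, SE 0.20, adjusted p = 0.000459). Aldoc, the brain form of aldolase, had 0, 0.0369 and 0 FPKM in the P21 libraries, against 2.76, 4.25 and 1.34 FPKM in the P1 libraries (log2 change -2.58, SE 0.35, adjusted p = 0.00168). Aldoa, the muscle form, had 1193, 1308 and 1073 FPKM in the P21 libraries, against 423, 415 and 374 FPKM in the P1 libraries (log2 change 1.56, SE 0.24, adjusted p = 0.00269). The ages did not overlap for any of the 5 genes. Lower genes numbered 2 without P1 library 2 or 3 and without P21 library 1 or 3.

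Genes of mitosis had the lowest median of the lists. Of 48 genes, 35 passed the level filter, and since 27 of these were under 1 FPKM in every P21 library and passed only through their P1 values, their count is a description: 33 were lower, none was higher, and the median was -2.74. Ccnb2, a B-type cyclin that drives entry into mitosis, had 1.22, 1.18 and 0.9995 FPKM in the P21 libraries, against 8.11, 22.8 and 25.7 FPKM in the P1 libraries (log2 change -3.41, SE 0.39, adjusted p = 0.000847). Cdk1, its partner kinase, had 0.293, 0.488 and 0.441 FPKM in the P21 libraries, against 3.90, 14.5 and 17.4 FPKM in the P1 libraries (log2 change -3.55, SE 0.49, adjusted p = 0.00192). Spc25, a part of the kinetochore that holds chromosomes to the spindle, had 0.480, 0.453 and 0.404 FPKM in the P21 libraries, against 3.04, 9.21 and 11.1 FPKM in the P1 libraries (log2 change -2.96, SE 0.41, adjusted p = 0.00184). Mki67, the proliferation antigen, had 0.854, 0.586 and 0.680 FPKM in the P21 libraries, against 3.73, 17.6 and 17.7 FPKM in the P1 libraries. All P21 libraries were low, and P1 library 1 lay between them and the other P1 libraries. The list's median in each library, centred per gene, was -1.36, -1.41 and -1.39 at P21, against 0.10, 1.89 and 2.05 at P1. Without P1 library 1 the median change was -3.38 and 33 genes were lower, and with a minimum of 5 FPKM, which leaves fewer members to test, 4 were lower. The members that did not pass the test were Bub3 and Cenpa, with changes of -0.15 and -0.16, chosen here because they are the exceptions.

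DNA replication genes followed at a smaller size. Of 49 genes, 37 passed the filter, 25 were lower and none was higher, with a median of -1.40; 6 passed only through their P1 values, so the count is again a description, and with a minimum of 5 FPKM 5 were lower. E2f1, a transcription factor of the G1/S transition, had 0.621, 0.191 and 0.587 FPKM in the P21 libraries, against 3.92, 11.4 and 11.5 FPKM in the P1 libraries (log2 change -3.18, SE 0.40, adjusted p = 0.00127). Rrm2, the regulated subunit of ribonucleotide reductase, had 1.01, 0.608 and 0.349 FPKM in the P21 libraries, against 6.32, 30.3 and 24.5 FPKM in the P1 libraries (log2 change -3.95, SE 0.55, adjusted p = 0.00235). Mcm5, a part of the replicative helicase, had 1.70, 1.30 and 0.968 FPKM in the P21 libraries, against 4.88, 14.9 and 12.1 FPKM in the P1 libraries (log2 change -2.50, SE 0.38, adjusted p = 0.00256). P1 library 1 was again the lowest of its age in these 3 genes but above each P21 library.

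Promoters of these genes are shown because cell cycle genes are known to carry short shared elements. The 300-base windows, from 250 bases before to 50 after the annotated start, are RefSeq's on GRCm38.p6, whereas no source used here gives the build of the count table. All members of a list were searched, whether or not they passed the level filter, and some genes have several windows. The 43 windows of the mitosis list belong to 40 of its 48 genes. The CHR element (TTTGAA, both strands) was in 33 of these 43 windows (76.7%), beside 17.9% of all 32851 windows. The CCAAT box (CCAAT, both strands) was in 32 of 43 (74.4%), beside 37.4% of all windows. An E2F site, searched as TTTCCCGC or TTTGGCGC on both strands, was in 13 of 46 windows of the replication list (28.3%), beside 1.6% of all windows. Those 46 windows belong to 39 of the list's 49 genes. The 3 windows below belong to members of the 2 lists with the smallest p among those considered. Members were considered if their first listed window holds the CHR or E2F letters, and those on a certain chromosome were left out. The windows lie at chr9:70421505-70421804 (Ccnb2, minus strand), chr2:69206164-69206463 (Spc25, minus strand) and chr8:75109259-75109558 (Mcm5, plus strand). Capitals mark matches to CHR and CCAAT in Ccnb2 and Spc25 and to E2F in Mcm5, and a match is a run of letters, not a proven site.
Ccnb2: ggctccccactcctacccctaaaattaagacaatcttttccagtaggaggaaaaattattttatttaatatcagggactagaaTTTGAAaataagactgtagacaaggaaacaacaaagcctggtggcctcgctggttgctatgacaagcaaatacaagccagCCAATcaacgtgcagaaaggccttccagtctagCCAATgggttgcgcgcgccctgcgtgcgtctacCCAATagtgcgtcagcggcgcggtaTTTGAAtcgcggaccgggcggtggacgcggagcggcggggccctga
Spc25: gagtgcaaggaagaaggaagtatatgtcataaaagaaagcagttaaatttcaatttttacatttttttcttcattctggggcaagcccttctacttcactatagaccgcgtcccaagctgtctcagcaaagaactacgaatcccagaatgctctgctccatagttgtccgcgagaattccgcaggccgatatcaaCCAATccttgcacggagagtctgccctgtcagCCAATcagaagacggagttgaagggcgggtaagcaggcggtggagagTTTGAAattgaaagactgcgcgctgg
Mcm5: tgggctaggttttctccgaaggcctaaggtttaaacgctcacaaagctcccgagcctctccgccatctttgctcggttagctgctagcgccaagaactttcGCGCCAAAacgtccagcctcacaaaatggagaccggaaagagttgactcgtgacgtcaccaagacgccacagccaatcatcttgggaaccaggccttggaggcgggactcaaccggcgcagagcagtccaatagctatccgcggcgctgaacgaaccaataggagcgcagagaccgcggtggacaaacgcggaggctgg

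**Figure D4:**
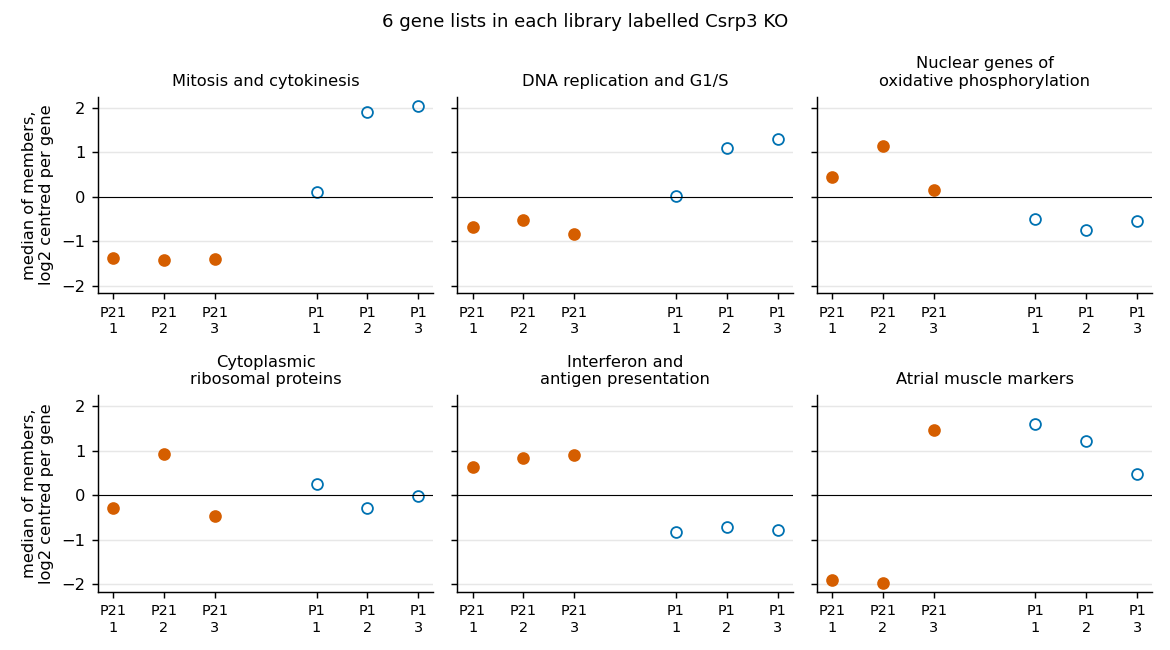
For 6 gene lists, each point is the median over the list's members of log2(FPKM + 0.5) centred on each gene's mean in 1 library labelled Csrp3 KO, filled for P21 and open for P1. Mitosis genes lie at -1.36 to -1.41 at P21, against 0.10 in P1 library 1 and 1.89 and 2.05 in the other P1 libraries; P21 library 2 is high for ribosomal proteins (0.91) and P21 library 3 for atrial markers (1.46).

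Regulators of G1 moved both ways. Of 24 genes, 22 passed the filter, 1 of them only through its P1 values. Of the 22, 4 were higher and 7 lower, with a median of -0.45 and, under TPM scaling, 2 higher and 14 lower. Ccnd2, a D-type cyclin that opens the cell cycle with Cdk4 and Cdk6, had 6.05, 4.75 and 6.30 FPKM in the P21 libraries, against 13.1, 14.5 and 19.01 FPKM in the P1 libraries (log2 change -1.36, SE 0.19, adjusted p = 0.00195). Ccnd3, its relative, had 6.68, 7.44 and 7.21 FPKM in the P21 libraries, against 17.3, 16.04 and 15.04 FPKM in the P1 libraries (log2 change -1.13, SE 0.14, adjusted p = 0.00128). Cdk2, the kinase of S phase entry, had 3.37, 1.61 and 2.58 FPKM in the P21 libraries, against 7.18, 10.5 and 9.68 FPKM in the P1 libraries (log2 change -1.70, SE 0.25, adjusted p = 0.00238). These 3 genes were lower in each P21 library, and here P1 library 1 did not stand far from the others. Btg2, known as a brake on division, had 61.5, 32.2 and 36.8 FPKM in the P21 libraries, against 13.9, 9.84 and 14.8 FPKM in the P1 libraries (log2 change 1.68, SE 0.27, adjusted p = 0.00325). Gadd45a, a growth arrest gene, had 9.65, 5.80 and 7.58 FPKM in the P21 libraries, against 3.20, 3.12 and 2.59 FPKM in the P1 libraries (log2 change 1.21, SE 0.20, adjusted p = 0.00389).

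Genes of the imprinted growth list, many of them known for expression from 1 parental copy, fell nearly throughout. Whether each member is expressed in this way in heart was not tested. Of 20 genes, 18 passed the filter, 4 of them only through their P1 values, 16 were lower and 1 was higher, with a median of -1.70. Mest had 4.14, 3.85 and 3.53 FPKM in the P21 libraries, against 94.9, 74.8 and 84.7 FPKM in the P1 libraries (log2 change -4.29, SE 0.16, adjusted p = 1.37e-05). Plagl1, a zinc finger regulator of other imprinted genes, had 0.718, 0.293 and 1.14 FPKM in the P21 libraries, against 22.6, 22.3 and 16.1 FPKM in the P1 libraries (log2 change -4.14, SE 0.28, adjusted p = 9.38e-05). Igf2, the fetal growth factor beside H19, had 0.134, 0 and 0.746 FPKM in the P21 libraries, against 8.30, 10.96 and 7.52 FPKM in the P1 libraries (log2 change -3.67, SE 0.34, adjusted p = 0.000353). Igf2r, the receptor that clears it, had 14.2, 14.3 and 14.2 FPKM in the P21 libraries, against 51.3, 51.4 and 29.7 FPKM in the P1 libraries (log2 change -1.55, SE 0.23, adjusted p = 0.00235). Igf2 was at or near 0 in each P21 library and at several FPKM in each P1 library. The member that rose was Dcn, the matrix proteoglycan decorin, at 125, 182 and 168 FPKM at P21 and 40.8, 47.4 and 66.6 FPKM at P1 (log2 change 1.62, SE 0.25, adjusted p = 0.00282). Gnas, with a change of -0.28, did not pass the test.

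The list of insulin-like growth factor signalling shares Igf2 and Igf2r with the imprinted list. Of 23 genes, 15 passed the filter, 3 of them only through their P1 values, and 2 were higher and 9 lower, with a median of -1.10. The summed level of the 15 went the other way, with 469.8 to 653 FPKM at P21 and 349.6 to 407 FPKM at P1. Most of the P21 sum came from 1 gene, Igfbp7. Igf2bp2, an RNA-binding protein that acts on Igf2 transcripts, had 1.24, 1.09 and 1.36 FPKM in the P21 libraries, against 6.04, 5.86 and 5.15 FPKM in the P1 libraries (log2 change -1.84, SE 0.16, adjusted p = 0.000296), and its relative Igf2bp3 had 0.0730, 0 and 0.0691 FPKM in the P21 libraries, against 1.83, 1.83 and 1.74 FPKM in the P1 libraries (log2 change -2.07, SE 0.22, adjusted p = 0.000604). Both were low in each P21 library and close to each other among the P1 libraries. Igfbp7, a secreted binding protein made by vessels, had 325, 396 and 428 FPKM in the P21 libraries, against 86.3, 117 and 126 FPKM in the P1 libraries (log2 change 1.81, SE 0.24, adjusted p = 0.00158).

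Calcium handling and excitation-contraction coupling had 27 of 28 genes past the filter, 9 higher and 3 lower, with a median of 0.41 that turned to -0.26 under TPM scaling, where 5 were higher and 8 lower. S100a1, a calcium sensor that acts on the release channel and the pump, had 1014, 1389 and 853 FPKM in the P21 libraries, against 208, 193 and 233 FPKM in the P1 libraries (log2 change 2.33, SE 0.27, adjusted p = 0.000822). Hrc, a calcium-binding protein of the sarcoplasmic reticulum, had 358, 236 and 289 FPKM in the P21 libraries, against 59.4, 91.9 and 66.2 FPKM in the P1 libraries (log2 change 2.02, SE 0.26, adjusted p = 0.00127). Cacna2d1, an accessory subunit of the L-type channel, had 16.5, 19.4 and 17.8 FPKM in the P21 libraries, against 6.41, 5.19 and 6.88 FPKM in the P1 libraries (log2 change 1.47, SE 0.16, adjusted p = 0.000725). Slc8a1, the sodium-calcium exchanger of the surface membrane, went the other way, with 14.4, 16.5 and 11.6 FPKM in the P21 libraries, against 39.4, 34.7 and 31.6 FPKM in the P1 libraries (log2 change -1.29, SE 0.18, adjusted p = 0.00192). For each of the 4 genes the ages did not overlap.

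Potassium, sodium and pacemaker channels had 27 of 33 genes past the filter, 1 of them only through its P1 values. Of the 27, 10 were higher and 7 lower. The median of 0.30 turned to -0.33 under TPM scaling, where 5 were higher and 12 lower. Kcna5, a potassium channel that helps end the action potential, had 21.9, 18.1 and 19.4 FPKM in the P21 libraries, against 5.03, 4.50 and 7.01 FPKM in the P1 libraries (log2 change 1.77, SE 0.19, adjusted p = 0.000638). Kcnk3, a background potassium channel, had 81.9, 82.9 and 77.02 FPKM in the P21 libraries, against 28.7, 28.2 and 34.2 FPKM in the P1 libraries (log2 change 1.40, SE 0.17, adjusted p = 0.000963). Kcne1, the accessory subunit of the slow delayed rectifier, had 6.38, 3.15 and 2.81 FPKM in the P21 libraries, against 24.02, 41.3 and 50.4 FPKM in the P1 libraries (log2 change -3.10, SE 0.35, adjusted p = 0.000783). Gja5, connexin 40 of atria and the conduction system, had 0.977, 1.45 and 2.51 FPKM in the P21 libraries, against 15.9, 15.6 and 9.09 FPKM in the P1 libraries (log2 change -2.73, SE 0.31, adjusted p = 0.000794). Hcn2, a pacemaker channel, had 15.4, 11.1 and 13.2 FPKM in the P21 libraries, against 0.971, 2.44 and 2.94 FPKM in the P1 libraries (log2 change 2.47, SE 0.31, adjusted p = 0.00127). Kcne1 and Gja5 were thus low in each P21 library, and Kcna5, Kcnk3 and Hcn2 were high in each.

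Hypertrophy and wall stress genes had the highest median of the 23 lists. Of 24 genes, 23 passed the filter, 2 of them only through their P21 values, so the count is a description. Of the 23, 18 were higher and none lower, and 11 kept their call in every alternative with a value. The median was 1.76, and 1.10 under TPM scaling, where 13 were higher and 1 lower. Several members are also known from normal growth of the heart after birth. Hspb6, a small heat shock protein of muscle, had 782, 555 and 718 FPKM in the P21 libraries, against 41.1, 54.9 and 53.9 FPKM in the P1 libraries (log2 change 3.76, SE 0.24, adjusted p = 7.20e-05). Hspb8, a relative that works with the chaperone partner Bag3, had 193, 237 and 164 FPKM in the P21 libraries, against 19.1, 22.3 and 25.5 FPKM in the P1 libraries (log2 change 3.12, SE 0.21, adjusted p = 9.38e-05). Fhl1, a LIM protein like Csrp3 that binds titin, had 106, 177 and 184 FPKM in the P21 libraries, against 46.8, 51.7 and 61.9 FPKM in the P1 libraries (log2 change 1.499, SE 0.26, adjusted p = 0.0045). In all 3 the P21 libraries lay above the P1 libraries without overlap. Nppa, Myh7, Xirp1 and Flnc did not pass the test, although Nppa and Myh7 are classic members of the fetal gene program.

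Acta1 leads both this list and the thin filament list, and its promoter is known for CArG boxes, which serum response factor binds. A CArG box on either strand was found in 5 of 30 windows of the hypertrophy list (16.7%), beside 1.6% of all windows. Those 30 windows belong to 20 of the list's 24 genes, so windows are not genes. The RefSeq window of Acta1 lies at chr8:123894726-123895025 on the minus strand of GRCm38.p6, and capitals mark the matches.
Acta1: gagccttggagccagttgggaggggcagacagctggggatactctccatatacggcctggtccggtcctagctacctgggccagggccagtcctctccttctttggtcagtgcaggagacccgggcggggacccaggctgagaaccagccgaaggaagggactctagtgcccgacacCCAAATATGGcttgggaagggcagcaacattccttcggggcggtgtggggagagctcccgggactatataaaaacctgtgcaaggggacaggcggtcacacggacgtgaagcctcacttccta

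Among 36 metabolic and cardiac transcription regulators, 35 passed the filter, 1 only through its P1 values and 1 only through its P21 values. Of the 35, 6 were higher and 12 lower, with a median of -0.32. The largest rises were in nuclear receptors: Rxrg, retinoid X receptor gamma, had 28.1, 45.1 and 20.5 FPKM in the P21 libraries, against 0.621, 2.05 and 2.84 FPKM in the P1 libraries (log2 change 3.83, SE 0.43, adjusted p = 0.00089). Thrb, thyroid hormone receptor beta, had 3.29, 3.86 and 2.78 FPKM in the P21 libraries, against 0.604, 0.259 and 0.318 FPKM in the P1 libraries (log2 change 2.10, SE 0.23, adjusted p = 0.000686). Perm1, a muscle regulator of mitochondrial genes, had 78.2, 92.2 and 61.7 FPKM in the P21 libraries, against 20.1, 26.3 and 26.9 FPKM in the P1 libraries (log2 change 1.63, SE 0.21, adjusted p = 0.00133). Tbx20, a T-box factor of heart development, had 6.14, 5.62 and 7.92 FPKM in the P21 libraries, against 17.2, 20.6 and 25.3 FPKM in the P1 libraries (log2 change -1.60, SE 0.20, adjusted p = 0.00118). Myocd, the coactivator myocardin, had 4.54, 3.32 and 3.89 FPKM in the P21 libraries, against 11.7, 12.2 and 9.998 FPKM in the P1 libraries (log2 change -1.43, SE 0.17, adjusted p = 0.000953). Rxrg, Thrb and Perm1 were higher in each P21 library and Tbx20 and Myocd lower in each. The count of lower genes was 6 without P1 library 2 and 20 under TPM scaling.

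RNA-binding regulators of splicing changed little. Of 30 genes, 29 passed the filter, 1 was higher and 6 lower, with a median of -0.11 and, under TPM scaling, none higher and 20 lower. Celf1, a splicing regulator that falls in heart after birth, had 12.7, 10.2 and 12.9 FPKM in the P21 libraries, against 22.4, 25.6 and 24.99 FPKM in the P1 libraries (log2 change -1.002, SE 0.16, adjusted p = 0.00324). Hnrnpa1 had 52.3, 50.9 and 56.1 FPKM in the P21 libraries, against 112, 117 and 90.8 FPKM in the P1 libraries (log2 change -0.99, SE 0.18, adjusted p = 0.0059). Both were lower in each P21 library. Without P1 library 2 or P21 library 1, 3 genes were lower. Of 63 cytoplasmic ribosomal protein genes, 61 passed the filter, and the members that passed the test were Rpl3l, which rose, and Rpl3, its general counterpart, which had 50.8, 84.5 and 51.8 FPKM in the P21 libraries, against 163, 110.3 and 131 FPKM in the P1 libraries (log2 change -1.13, SE 0.26, adjusted p = 0.0147). Rpl3's call was lost without P1 library 1 and without P21 library 1. The list's median of 0.10 was -0.57 under TPM scaling and -0.32 without P21 library 2, in which ribosomal protein genes stood at 0.91, against -0.30 and -0.47 in the other P21 libraries.

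Extracellular matrix genes moved both ways. Among 30 collagen genes, 26 passed the filter, 1 of them only through its P21 values. Of the 26, 6 were higher and 4 lower. The median of 0.05 was -0.62 under TPM scaling, where 3 were higher and 6 lower. Col8a1, a short-chain network collagen, had 5.21, 8.41 and 9.01 FPKM in the P21 libraries, against 0.135, 0.506 and 0.325 FPKM in the P1 libraries (log2 change 3.28, SE 0.27, adjusted p = 0.000191). Col5a3, of fibril-forming type V, had 14.2, 8.31 and 17.3 FPKM in the P21 libraries, against 1.46, 1.95 and 1.54 FPKM in the P1 libraries (log2 change 2.63, SE 0.26, adjusted p = 0.000463). Col18a1, the basement membrane collagen that holds endostatin, had 3.98, 2.83 and 5.02 FPKM in the P21 libraries, against 21.3, 38.9 and 21.8 FPKM in the P1 libraries (log2 change -2.62, SE 0.28, adjusted p = 0.000621). Lox, the enzyme that cross-links collagen, had 1.89, 3.78 and 1.69 FPKM in the P21 libraries, against 7.01, 6.82 and 7.32 FPKM in the P1 libraries (log2 change -1.42, SE 0.26, adjusted p = 0.00513). Col8a1 and Col5a3 were higher in each P21 library and Col18a1 and Lox lower in each. Lower collagen genes numbered 2 without P1 library 2 or 3 or without P21 library 1.

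Among 40 other matrix genes, 37 passed the filter, 1 of them only through its P21 values. Of the 37, 8 were higher and 10 lower. The median of -0.15 was -0.80 under TPM scaling, where 3 were higher and 19 lower. Cilp, a secreted matrix protein of fibroblasts, had 3.88, 9.15 and 6.78 FPKM in the P21 libraries, against 0.0730, 0.146 and 0.1998 FPKM in the P1 libraries (log2 change 3.41, SE 0.30, adjusted p = 0.000282). Mfap5, a microfibril protein, had 32.4, 51.7 and 40.2 FPKM in the P21 libraries, against 8.70, 7.35 and 14.2 FPKM in the P1 libraries (log2 change 2.01, SE 0.27, adjusted p = 0.00166). Fbn2, the fibrillin of developing tissue, had 0.908, 0.683 and 1.16 FPKM in the P21 libraries, against 5.63, 8.35 and 5.68 FPKM in the P1 libraries (log2 change -2.31, SE 0.22, adjusted p = 0.000383). Postn, periostin of young and injured heart, had 16.6, 44.5 and 23.6 FPKM in the P21 libraries, against 83.04, 116 and 126 FPKM in the P1 libraries (log2 change -2.02, SE 0.35, adjusted p = 0.00451). Cilp and Mfap5 were higher in each P21 library, and Fbn2 and Postn lower in each. The counts were 5 higher without P1 library 1, 6 lower without P1 library 2, and 5 higher and 6 lower without P21 library 1.

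The p38 MAP kinase pathway and Rnf5, named in the title of the series, had 19 of 20 genes past the filter, 5 higher and 3 lower, with a median of 0.32 that turned to -0.32 under TPM scaling, where 2 were higher and 8 lower. Rnf5 itself had 11.02, 10.8 and 10.4 FPKM in the P21 libraries, against 10.002, 13.8 and 11.6 FPKM in the P1 libraries (log2 change -0.12, adjusted p = 0.623), and the ages overlapped. Mapk14, the main p38 kinase, had 20.1, 20.9 and 16.99 FPKM in the P21 libraries, against 15.8, 17.96 and 17.3 FPKM in the P1 libraries (log2 change 0.17, adjusted p = 0.431), and its ages overlapped as well. Under TPM scaling Mapk14 turned to -0.49 with an adjusted p of 0.0441, so its direction and its call depend on the scaling. Of the 2 kinases that activate p38, Map2k3 had 29.9, 32.99 and 27.9 FPKM in the P21 libraries, against 11.8, 13.4 and 12.03 FPKM in the P1 libraries (log2 change 1.25, SE 0.15, adjusted p = 0.00103). Map2k6 had 2.62, 2.66 and 2.85 FPKM in the P21 libraries, against 5.50, 6.20 and 4.70 FPKM in the P1 libraries (log2 change -0.89, SE 0.16, adjusted p = 0.00529), so they changed in opposite directions. Dusp1, a phosphatase that switches p38 off, had 81.3, 67.3 and 68.3 FPKM in the P21 libraries, against 24.2, 17.99 and 22.6 FPKM in the P1 libraries (log2 change 1.72, SE 0.18, adjusted p = 0.000578). Tab2, an adaptor of the kinase TAK1, had 10.1, 9.20 and 9.19 FPKM in the P21 libraries, against 20.3, 20.8 and 19.6 FPKM in the P1 libraries (log2 change -1.05, SE 0.14, adjusted p = 0.00156). Mapk12, the muscle form of p38, had 13.3, 11.3 and 16.7 FPKM in the P21 libraries, against 5.32, 7.29 and 5.86 FPKM in the P1 libraries (log2 change 1.09, SE 0.20, adjusted p = 0.00498). Transcript levels say nothing of phosphorylation, by which this pathway works.

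Interferon and antigen presentation genes were higher at P21 in nearly every tested member. Of 28 genes, 25 passed the filter, 8 of them only through their P21 values; 24 were higher and none lower, with a median of 1.57, and of 1.02 under TPM scaling, where 17 were higher, and 8 were higher with a minimum of 5 FPKM. Bst2, with a change of 0.84, was the member that did not pass. Psmb8, a subunit of the immunoproteasome, had 3.78, 4.49 and 4.65 FPKM in the P21 libraries, against 0.532, 0.751 and 0.522 FPKM in the P1 libraries (log2 change 2.13, SE 0.19, adjusted p = 0.000292). Irf1, an interferon regulatory factor, had 6.98, 6.60 and 6.85 FPKM in the P21 libraries, against 1.39, 1.76 and 1.003 FPKM in the P1 libraries (log2 change 1.98, SE 0.19, adjusted p = 0.000392). Isg15, a ubiquitin-like protein, had 6.66, 5.14 and 4.58 FPKM in the P21 libraries, against 0.441, 0.264 and 0.929 FPKM in the P1 libraries (log2 change 2.55, SE 0.27, adjusted p = 0.000578). These levels were low at both ages, and each P21 library lay above each P1 library. Macrophage markers moved with them: of 16 genes, 10 passed the filter, 7 were higher (4 under TPM scaling) and none lower, and their summed level was 216 to 399.6 FPKM at P21 and 56.9 to 73.7 FPKM at P1. Lyz2, lysozyme of myeloid cells, had 87.4, 169 and 111 FPKM in the P21 libraries, against 22.7, 14.8 and 18.6 FPKM in the P1 libraries (log2 change 2.65, SE 0.28, adjusted p = 0.000547). C1qa, complement made by tissue macrophages, had 49.99, 95.04 and 50.5 FPKM in the P21 libraries, against 13.4, 10.3 and 11.8 FPKM in the P1 libraries (log2 change 2.35, SE 0.27, adjusted p = 0.000778). The part of macrophages in the rise of the interferon genes was not tested.

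Interferon regulatory factors bind the interferon list's element, which is GAAA, then 2 bases of any kind, then GAAA, on either strand. The element was in 10 of 23 windows (43.5%), beside 3.4% of all windows. Those 23 windows belong to 20 of the list's 28 genes, and some genes have several. Isg15 had the smallest p among the members considered whose first listed window holds the element. The choice left out the members that lie on a certain chromosome. The RefSeq window of Isg15 is at chr4:156200769-156201068 on the minus strand of GRCm38.p6, with overlapping matches in capitals.
Isg15: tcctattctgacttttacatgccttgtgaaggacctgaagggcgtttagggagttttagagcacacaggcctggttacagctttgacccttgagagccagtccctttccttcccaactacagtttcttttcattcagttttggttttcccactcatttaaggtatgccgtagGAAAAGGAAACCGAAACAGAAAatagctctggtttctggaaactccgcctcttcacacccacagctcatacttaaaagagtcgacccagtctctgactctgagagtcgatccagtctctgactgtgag

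Markers of other cell types show what else moved. All 10 heart muscle markers passed the filter, 8 were higher and none lower, with a summed level of 22436 to 22731 FPKM at P21 and 7957 to 12710.0 FPKM at P1; 2 were higher without P1 library 1, without P1 library 3 or without P21 library 1, and under TPM scaling 1 was higher and 1 lower. Atrial markers depended on a single library. Myl7, the atrial regulatory light chain, had 4.90, 9.18 and 1158 FPKM in the P21 libraries, against 1057, 756 and 706 FPKM in the P1 libraries, and Myl4, the atrial essential light chain, had 1.03, 2.28 and 262 FPKM in the P21 libraries, against 162, 114 and 91.5 FPKM in the P1 libraries. P21 library 3 was at or above the P1 level in both, while P21 libraries 1 and 2 were near 0. The list's summed level was 713, 881 and 4018 FPKM at P21, against 3069, 1754 and 1399.6 FPKM at P1, and of its 12 genes 1 was lower with all libraries and 9 without P21 library 3. No source used here says how much atrial tissue each sample held.

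Among fibroblast markers, 3 of 13 were higher and 2 lower, with a median of -0.17 that was -0.84 under TPM scaling. Of the 13, 6 had a change above 0. The list's summed level was 1134.6 to 1734 FPKM at P21 and 766 to 1159 FPKM at P1, and Gsn was a large part of the P21 sum. Gsn, gelsolin, had 570.00, 389.6 and 854 FPKM in the P21 libraries, against 89.2, 122 and 58.9 FPKM in the P1 libraries (log2 change 2.73, SE 0.37, adjusted p = 0.00166). Endothelial markers had 5 of 17 higher and 1 lower, with a median of 0.29 that was -0.37 under TPM scaling, and their sum was 778 to 883 FPKM at P21 and 478 to 497 FPKM at P1. Ly6c1, a marker of capillary endothelium, had 139, 192 and 113 FPKM in the P21 libraries, against 23.3, 11.2 and 13.5 FPKM in the P1 libraries (log2 change 3.20, SE 0.31, adjusted p = 0.000383). Ly6c1 and Gsn were several times higher in every P21 library. Smooth muscle and pericyte markers had 4 of 11 higher and 1 lower, with a median of 0.50 that turned to -0.04 under TPM scaling. Among epicardial markers 9 of 12 were lower and 1 was higher, 3 of the 12 having passed only through their P1 values, with sums of 15.5 to 32.7 FPKM at P21 and 64.9 to 80.2 FPKM at P1, and 5 were lower without P21 library 1. Krt18, a keratin of the heart's surface layer, had 0.592, 0 and 0.785 FPKM in the P21 libraries, against 4.88, 4.14 and 3.73 FPKM in the P1 libraries (log2 change -2.41, SE 0.35, adjusted p = 0.00221).

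Blood markers split by cell type. Red cell markers had 9 of 18 genes past the filter, 7 higher and 1 lower, with sums of 7166 to 15073 FPKM at P21 and 1919.6 to 4449.8 FPKM at P1. Tfrc, the transferrin receptor, had 65.9, 105 and 71.5 FPKM in the P21 libraries, against 17.6, 21.2 and 35.05 FPKM in the P1 libraries (log2 change 1.72, SE 0.29, adjusted p = 0.00389). Of 17 markers of lymphocytes, neutrophils and mast cells, 6 passed the filter, 3 of them only through their P1 values, and 5 were lower, with sums of 5.22 to 9.98 FPKM at P21 and 28.6 to 43.0 FPKM at P1. Ngp, a granule protein of developing neutrophils, had 0 FPKM in each P21 library, against 3.76, 2.94 and 4.44 FPKM in the P1 libraries. S100a9, another neutrophil protein, had 2.77, 7.15 and 5.86 FPKM in the P21 libraries, against 20.3, 14.7 and 21.7 FPKM in the P1 libraries (log2 change -1.82, SE 0.32, adjusted p = 0.00454). Schwann cell, adipocyte and thymus or lung markers had 2 genes each past the filter. Among adipocyte markers below the filter, P21 library 3 stood apart: Cfd, a secreted fat cell protease chosen after its values were seen, had 0.554, 0.653 and 8.82 FPKM in the P21 libraries, against 0 FPKM in each P1 library. This is the library that also held the atrial genes, and the part of either in other results was not tested.

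The same age change was measured in WT hearts over the same 12344 genes, and the P21 libraries 1 and 2 of that group had the lowest scaling factors, as given above. In WT, 5599 genes (45.4%) passed the threshold, 2737 higher (22.2%) and 2862 lower (23.2%). The same model of 12 libraries called 3138 genes (25.4%) in libraries labelled KO. Genes past its threshold in the same direction in both genotypes numbered 2715, which is 86.5% of those in libraries labelled KO and 48.5% of those in WT. With WT P21 library 3 as the single P21 library of that genotype, 2855 WT genes passed; that library is then assumed to vary like the other groups, from which the spread is taken. Across genes, which are not independent replicates, the 2 sets of log2 changes had a Pearson r of 0.844. Tnni1 changed by -8.67 in libraries labelled KO and -8.64 in WT libraries, Rpl3l by 5.57 in libraries labelled KO and 5.85 in WT libraries, H19 by -6.17 in libraries labelled KO and -5.80 in WT libraries and Ckmt2 by 4.93 in libraries labelled KO and 4.89 in WT libraries.

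No gene passed the threshold for a difference between the 2 age changes by limma over 12344 genes (0%), where 858 had an unadjusted p under 0.05 and the smallest adjusted p was 0.459. Without WT P21 library 3 the count was 417, and it was 0 under each other alternative. The 10 named genes with the smallest p are therefore values to be read with an adjusted p of 0.676 each. Fhl1 changed by 1.499 in libraries labelled KO and -0.28 in WT libraries, a difference of 1.77 (SE 0.34, unadjusted p = 0.000238). Col8a1 changed by 3.28 in libraries labelled KO and 1.15 in WT libraries, a difference of 2.13 (SE 0.47, unadjusted p = 0.000779). Pdk4, the kinase that keeps pyruvate out of mitochondria, changed by 0.72 in libraries labelled KO and -2.74 in WT libraries, a difference of 3.46 (SE 0.77, unadjusted p = 0.000791). Its levels varied among libraries labelled KO, with 257, 85.01 and 145 FPKM at P21 and 151, 103 and 45.3 FPKM at P1. Ucp3, a mitochondrial carrier of muscle that is often high with Pdk4 when fatty acids are burnt, changed by 0.34 in libraries labelled KO and -1.82 in WT libraries, a difference of 2.17 (SE 0.50, unadjusted p = 0.0011). Map2k6 changed by -0.89 in libraries labelled KO and -1.96 in WT libraries, a difference of 1.08 (SE 0.26, unadjusted p = 0.00141). Hspb6 and Lmod2 had differences of 1.67 (SE 0.39, unadjusted p = 0.00108) and 1.42 (SE 0.34, unadjusted p = 0.00128), and Lrrc17, Srpx and the mast cell protease Cma1 had differences of 1.40 (SE 0.30, unadjusted p = 0.000532), 1.73 (SE 0.41, unadjusted p = 0.00129) and -2.44 (SE 0.55, unadjusted p = 0.00092).

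Medians of lists can be set side by side between the genotypes, as descriptions. Mitosis genes had a median of -2.74 in libraries labelled KO and -2.88 in WT, and imprinted genes -1.70 and -2.17. Hypertrophy and wall stress markers had 1.76 in libraries labelled KO, against 0.90 in WT and 0.88 with WT P21 library 3 alone. Acta1 changed by 6.17 in libraries labelled KO and 3.14 in WT libraries, a difference of 3.03 (SE 1.05, unadjusted p = 0.0144), with adjusted p = 0.676. Oxidative phosphorylation genes had 1.19 in libraries labelled KO, against 2.27 in WT and 1.27 with WT P21 library 3 alone, and ribosomal protein genes 0.10, against 1.46 and 0.12. P21 library 2 labelled KO was also high for both lists.

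**Figure D5:**
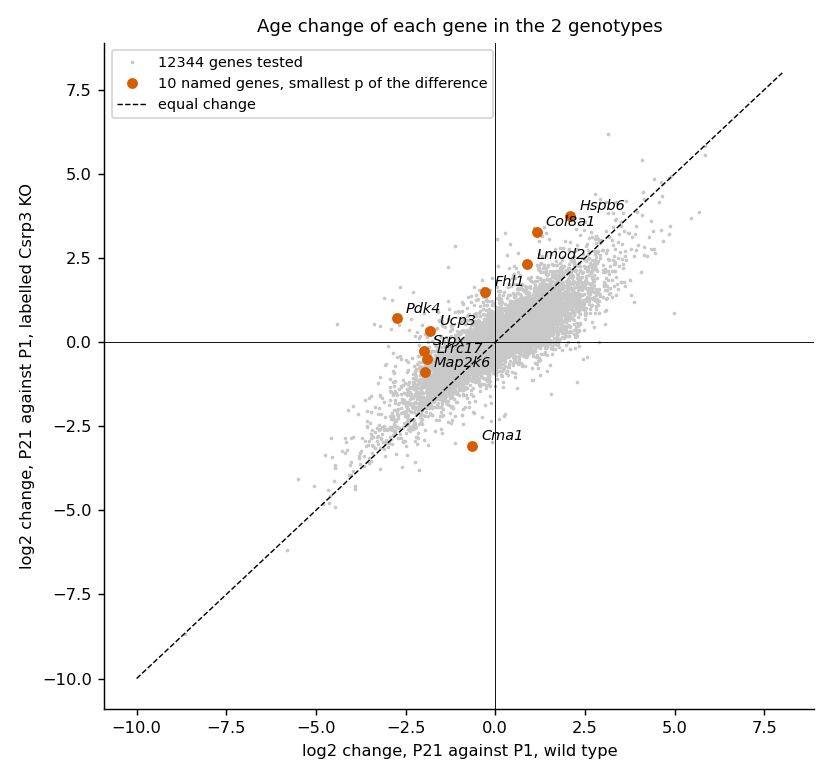
Each point is 1 of 12344 genes, with the log2 change of FPKM + 0.5 between P21 and P1 in libraries labelled Csrp3 KO on the vertical axis and in WT hearts on the horizontal axis, and the dashed line marks equal change. Coloured points are the 10 named genes with the smallest p for the difference; Pdk4 lies at 0.72 labelled KO and -2.74 in WT, and none passes after adjustment.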

How the data were processed

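Gene expression was measured by RNA-seq in 12 mouse heart samples, 3 for each genotype and age. Per the labels' protocols, RNA was extracted by a miRNeasy micro kit and turned into libraries by an Ovation Ultralow V2 kit. The submitters' processing notes name FastQC, TopHat2 2.0.13, Subread, featureCounts and edgeR and the builds GRCh38, mm10 and GRCm39, with no role for each. The values are FPKM per gene, as deposited by the authors in 1 table. Columns were matched by library name; the label of P21 library 3 of the labelled KO also gives a column letter that another sample carries, and its library name was followed. The table's own build and its use of strand are not given in the sources used here. Every FPKM value (100%) came back as a whole number of reads within 0.05 read once a scaling factor per library was taken out, which gave the depths.

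Genes with at least 1 FPKM in at least 3 of the 6 libraries labelled Csrp3 KO were tested as log2(FPKM + 0.5) with limma 3.58.1 in R 4.3.3, with a mean trend and robust empirical Bayes, over those 6 libraries. P-values were adjusted by Benjamini-Hochberg over 12344 genes, with a threshold of 0.05. Fold changes on this scale understate the change of low genes. The WT age change and the difference of the age changes came from 1 model of 12 libraries on the same genes. Ratios of related genes were compared by exact permutation tests. Summaries and figures were made with pandas 2.3.3, scipy 1.17.1 and matplotlib 3.10.9, and the test was checked on simulated data.

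Named genes were Csrp3, Rnf5 and Mapk14, the 12 genes with the largest change in each direction that averaged at least 5 FPKM in the higher group, did not overlap, spanned at least 300 bases and carried an official name, 5 members or fewer of each list with the smallest adjusted p, the related pairs, and 10 genes with the smallest p for the difference; Mki67, Bub3, Cenpa, Gnas, Bst2, Nppa, Xirp1 and Flnc were added after their values were seen. A few genes that this rule names are not reported here, though they stay in the counts over lists, pairs and all genes. Members and lists were chosen with earlier results of these data known. Alternatives were other pseudocounts, filters, scalings, models and each library left out. Promoter windows of 300 bases are RefSeq's on GRCm38.p6, whose gene starts lie within 1000 bases of the table's for 2.72% of genes, so no position was carried from one to the other. No protein sequences were used here.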

Additional observations from a re-analysis of the deposited data

How the results depend on the processing

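The count of 3838 genes past the threshold was 2475 with a minimum of 5 FPKM, 6278 under TPM scaling, 6073 with library weights and 2357 to 3873 with 1 library left out. The library weights were 7.04, 0.263 and 0.706 for P21 libraries 1 to 3, so the P21 side of that setting rested mostly on library 1. The count model on recovered reads (limma-voom) called 4045. Higher genes (1937) numbered 759 under TPM scaling, 982 without mitochondrial and the 20 most abundant genes and 2983 with library weights. Lower genes (1901) numbered 1088 with a minimum of 5 FPKM, 5519 under TPM scaling, 4091 without mitochondrial and the 20 most abundant genes and 3090 with library weights. With the replicate number as a block, 2616 genes passed, 1351 higher and 1265 lower, of which 2571 were among the 3838. Libraries with equal numbers had correlations of -0.07, -0.25 and -0.15 between their deviations from the group mean. Centring within groups of 3 ties such correlations to one another, so they cannot decide whether the numbers pair the libraries. Of 179 named genes past the threshold, 135 stayed past it in every alternative with a value; over 3188 values under alternatives 171 lost the call and 0 turned round. With 1 library left out, higher genes numbered 1230 to 1962 and lower genes 1127 to 1911, both lowest without P1 library 2; without P21 library 1 lower genes numbered 1263. The difference of the age changes had 0 to 417 genes with 1 library left out, 417 without WT P21 library 3, and WT had 2855 genes without its P21 libraries 1 and 2, where the lone library is assumed to vary like the other groups. The values that changed sign were among named genes that had not passed. Under TPM scaling they were Mapk14 -0.49, Rpl38 -0.10, Cidea -0.20, Ldha -0.062, Ckb -0.59, Ckm -0.19, Casq2 -0.49 and Ucp3 -0.31 (log2), and without mitochondrial and the 20 most abundant genes Mapk14 -0.30, Cidea -0.014, Ckb -0.40, Ckm -0.00053, Casq2 -0.30 and Ucp3 -0.12; the median gene was at -0.65 and -0.44 under these scalings. With library weights Xist was 0.78. With 1 library left out, Kdm5c ranged from -0.51 to 0.058, Xist from -2.23 to 1.16, Hk1 from -0.42 to 0.11, Ckb from -0.10 to 0.18, Fabp3 from -0.28 to 0.19 and Ucp3 from -0.00673 to 0.69. The cause of these changes was not tested. Precision rests on 3 libraries per age and on 10768517 to 14184772 reads.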
